A study of Mus musculus with 786 samples.

Results

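Bulk RNA-seq libraries of megakaryocyte-committed progenitors (MKP) and of cells labelled mature megakaryocytes (Mature Meg) were compared gene by gene. They are 2 of the 18 sorted populations of mouse bone marrow that were profiled in bulk, and 2 of the 786 samples of the series. All marrow came from C57BL6 mice of 6 to 8 weeks, no treatment is named for either library, and whether mice were pooled is not stated. MKP were sorted by flow cytometry as ckit+Sca1-CD41+cd150+ cells and Mature Meg as Lin-Ckit-sca1-CD41+ cells, with 1000 cells and 1 library each. The other 16 bulk populations, from stem cells to pro-erythrocytes, give the range against which the pair is placed. Genes of interest were those at FPKM 10 or more in either library whose FPKM + 1 differed at least 4-fold, together with platelet genes and markers of other blood cells. FPKM counts sequenced fragments per unit of transcript length and relative to the library's own mapped total. Without replicates no spread, standard error or p-value can be given, and every difference describes these libraries.

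Megakaryocytes are the marrow cells that shed platelets. They arise from progenitors that carry CD41, the integrin alpha chain encoded by Itga2b, then replicate their DNA without dividing, load granules with clotting and growth factors and extend tubulin-rich proplatelets into the blood vessels. GATA1, FLI1, RUNX1, TAL1 and NF-E2 are the transcription factors best known for driving these steps, and glycoproteins such as Gp5, the chemokine Pf4 (platelet factor 4) and von Willebrand factor are classic products of the lineage.

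The labels were first set against their defining markers. Itga2b, the antigen of both gates, was at 70.5 FPKM in MKP and 44.9 FPKM in Mature Meg, the highest and second highest of the 18 libraries, and reached at most 16.2 in the other 16. Gp5, a subunit of the von Willebrand factor receptor, was at 147 FPKM in MKP and 3.90 in Mature Meg. Pf4, an alpha-granule chemokine, was at 39.4 FPKM in MKP and 0.650 in Mature Meg. All 3 markers were thus highest of 18 in MKP, while the library labelled Mature Meg carried Itga2b with little Gp5 or Pf4 RNA. Other genes known for late megakaryocytes were low in both libraries and differed in direction. Gp9 was at 1.11 FPKM in Mature Meg and 0.167 in MKP, and Tubb1, the platelet beta-tubulin, at 2.00 and 0.0520. Ppbp was at 0.0974 FPKM in Mature Meg and listed at 0 in MKP. Itgb3 was at 0.479 FPKM in Mature Meg and 1.91 in MKP, and Gp1ba was listed at 0 in Mature Meg and at 1.01 in MKP. The Mature Meg name is therefore used as the label of a library, and its RNA went against that label for Gp5 and Pf4. The direction for Itga2b depends on scale, since its log2 difference (Mature Meg minus MKP) was -0.64 as deposited, 0.06 after rescaling to equal totals without the 20 highest genes and 0.91 after rescaling to ribosomal protein genes.

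Genes of the other gate antigens were low in both libraries. Kit was at 7.72 FPKM in MKP, 16th of the 18 libraries, and at 0.0871 in Mature Meg, the lowest of all. Slamf1 (CD150) was at 0.133 FPKM in MKP and listed at 0 in Mature Meg, and Ly6a (Sca-1) was listed at 0 in both.

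The promoter sequences of the label markers are shown because these genes define the lineage and served to check the labels. Beside them stand Prss34 and Mcpt8, serine proteases of basophils, because their direction was opposite to that of Gp5 and Pf4. Each line gives the 250 bases before the annotated start, 5′ to 3′ on the gene's strand, from RefSeq on GRCm38.p6. Capitals mark the words AGATAA or TGATAA, which GATA factors bind, and AGGAAG or CGGAAG, which ETS factors bind, on either strand. The windows are chr5:90772185-90772434 (plus strand) for Pf4, chr11:102469884-102470133 (minus strand) for Itga2b, chr16:30310782-30311031 (minus strand) for Gp5, chr17:25298144-25298393 (plus strand) for Prss34 and chr14:56085198-56085447 (minus strand) for Mcpt8.
Pf4: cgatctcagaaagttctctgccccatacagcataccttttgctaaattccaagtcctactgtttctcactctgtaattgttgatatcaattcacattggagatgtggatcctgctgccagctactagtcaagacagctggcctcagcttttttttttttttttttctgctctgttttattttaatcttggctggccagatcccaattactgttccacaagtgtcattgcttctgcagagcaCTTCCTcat
Itga2b: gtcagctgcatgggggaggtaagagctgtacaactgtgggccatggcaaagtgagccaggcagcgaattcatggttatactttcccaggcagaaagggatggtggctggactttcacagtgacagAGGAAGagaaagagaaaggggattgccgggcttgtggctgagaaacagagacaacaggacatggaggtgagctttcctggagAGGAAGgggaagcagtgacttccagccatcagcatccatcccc
Gp5: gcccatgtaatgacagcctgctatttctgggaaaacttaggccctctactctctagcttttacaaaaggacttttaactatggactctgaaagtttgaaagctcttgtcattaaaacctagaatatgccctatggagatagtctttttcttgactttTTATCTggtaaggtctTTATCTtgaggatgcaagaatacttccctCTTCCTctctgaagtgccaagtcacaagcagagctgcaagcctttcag
Prss34: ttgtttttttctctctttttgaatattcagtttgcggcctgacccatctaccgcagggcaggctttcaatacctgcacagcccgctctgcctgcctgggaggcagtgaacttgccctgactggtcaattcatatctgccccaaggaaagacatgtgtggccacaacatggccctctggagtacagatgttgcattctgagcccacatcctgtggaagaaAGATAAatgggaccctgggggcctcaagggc
Mcpt8: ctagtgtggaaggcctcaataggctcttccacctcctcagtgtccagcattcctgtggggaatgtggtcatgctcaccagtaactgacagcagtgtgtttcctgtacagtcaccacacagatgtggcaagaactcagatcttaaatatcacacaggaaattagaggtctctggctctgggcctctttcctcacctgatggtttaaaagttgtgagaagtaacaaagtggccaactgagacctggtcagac
Pf4 held 1 ETS word, Itga2b 2 ETS words, Gp5 2 GATA words and 1 ETS word, and Prss34 1 GATA word, while the Mcpt8 window held none of these words. Of all 27025 promoters in that table, 17.0% held a GATA word and 39.0% an ETS word. Among the genes higher in Mature Meg the shares were 6.96% and 54.2% of 273 promoters, and among those higher in MKP 7.44% and 49.5% of 1102, close to 7.86% and 50.0% over all genes tested for a difference. A match describes letters and shows no binding.

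The Mature Meg library stood apart from the others in gene detection, before any single gene was considered. It held 1642 genes at FPKM 1 or more, the fewest of the 18, against 4225 in MKP and 2866 to 6080 in the other 16. It listed 13359 of 18855 genes at exactly 0, against 10035 in MKP and 8841 to 11101 elsewhere. Its total FPKM was 129688, MKP's 173391, and its 10 highest genes took 26.5% of the total against 20.6% in MKP. Both measures lay within the range of the other 16, which was 112384 to 358246 for the total and 12.4% to 51.6% for the share. Of 16 housekeeping genes, 12 reached FPKM 1 in Mature Meg and 3 were listed at 0, so a 0 in this library is not read as absence. The part of this low detection in the differences given below was not tested.

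**Figure D1:**
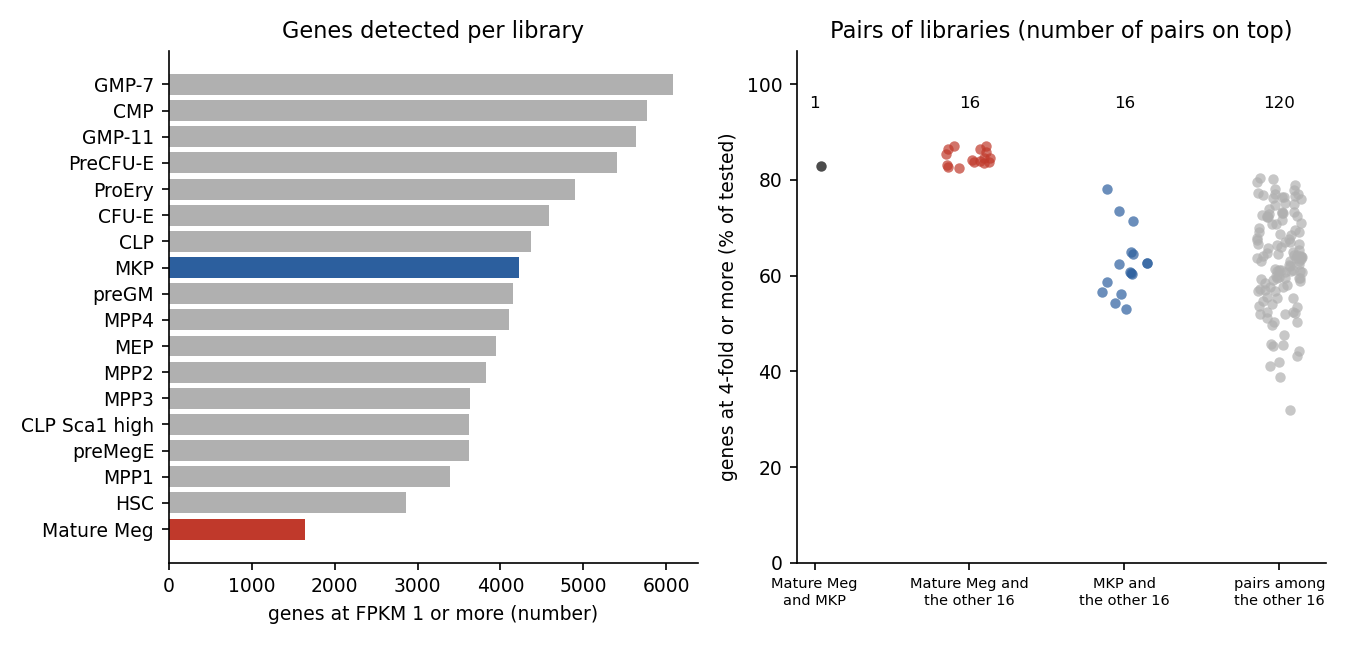
Left, number of genes at FPKM 1 or more in each of the 18 bulk libraries, where Mature Meg is lowest with 1642. Right, share of tested genes (FPKM 10 or more in either library of a pair) that differed at least 4-fold in FPKM + 1, 1 point per pair of libraries, with sideways scatter for visibility and the number of pairs on top; every pair with Mature Meg lies above 82%.

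Of 2013 genes at FPKM 10 or more in either library, 356 (17.7%) were at least 4-fold higher in Mature Meg and 1315 (65.3%) at least 4-fold higher in MKP, so that 83.0% passed in either direction. The median log2 difference was -3.58. Genes at FPKM 10 or more in both libraries numbered 337, which is 49.2% of those in Mature Meg and 20.2% of those in MKP. Within these 337 the directions were near equal in number, with 55 genes higher in Mature Meg, 60 higher in MKP and 222 under 4-fold. Across all genes the libraries had a Spearman rho of 0.63, a description over genes that share their library. Rescaling by the median ratio of genes high in both moved all Mature Meg values by 0.13 on the log2 scale, rescaling to equal totals by 0.71 and rescaling to ribosomal protein genes by 1.57. The share of called genes that were higher in Mature Meg was 21.3% as deposited and 35.7% with the ribosomal scale (641 higher in Mature Meg, 1155 higher in MKP).

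Mature Meg was as far from the other libraries as from MKP. It differed from each of the other 16 libraries in 82.4% to 87.1% of tested genes (median 84.4%), the lowest with CLP Sca1 high and the highest with HSC. MKP differed from the same 16 in 53.1% to 78.1% (median 61.6%) and was nearest to CMP. The 120 pairs among the other 16 ranged from 32.0% to 80.4%, with a median of 63.6%. MKP thus lay within the usual range and Mature Meg above it against every library. Of the 356 genes higher in Mature Meg, 218 (61.2%) had their highest value of all 18 libraries there. Of the 1315 genes higher in MKP, 339 (25.8%) were highest in MKP. Both sets were chosen for a high value in that same library, so these shares are only descriptive. Over all 9685 genes at FPKM 1 in any library, 3.30% were highest in Mature Meg and 5.51% in MKP.

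**Figure D2:**
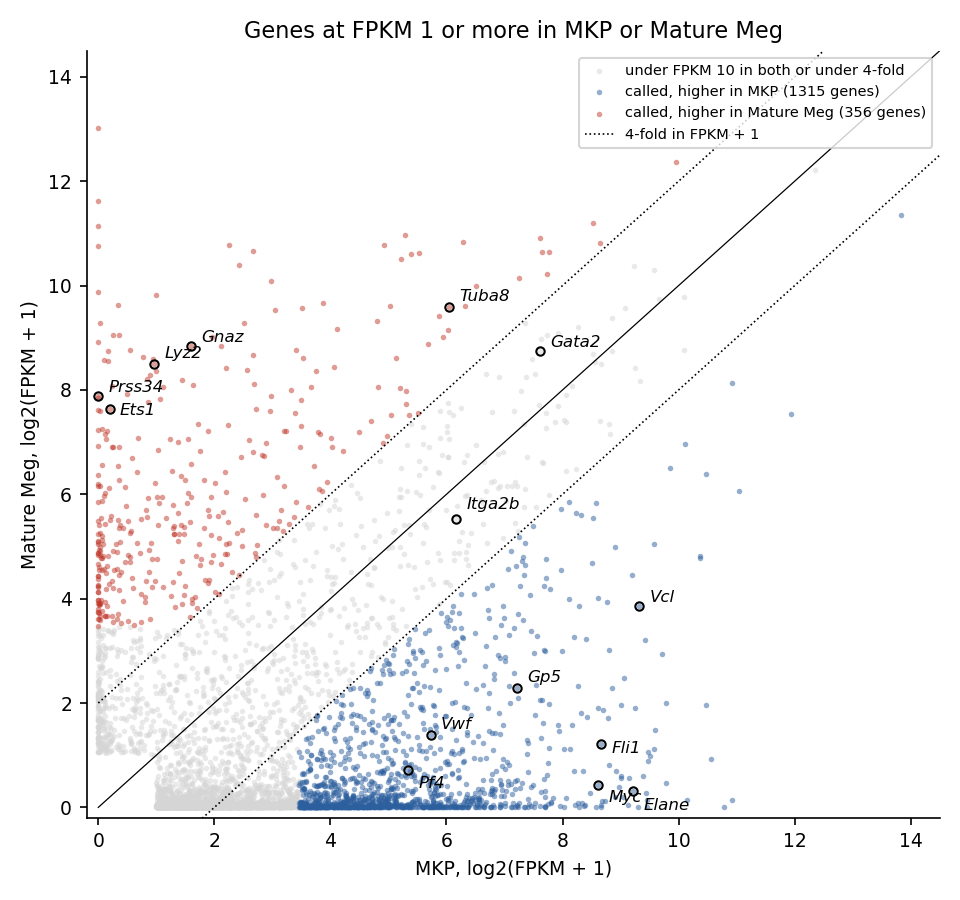
Each point is a gene at FPKM 1 or more in MKP or Mature Meg, with log2(FPKM + 1) in MKP on the x axis and in Mature Meg on the y axis; the solid line marks equality and the dotted lines 4-fold. The 1315 genes higher in MKP (blue) crowd near 0 in Mature Meg, the 356 genes higher in Mature Meg (red) lie along the left edge and upper left, and Itga2b lies near the line of equality.

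Near the threshold, Trim8 (3.24 FPKM in MKP and 16.0 in Mature Meg) was just inside and Ube2v1 (7.71 and 33.8) just outside for genes higher in Mature Meg. Zeb1 (12.7 FPKM in MKP and 2.39 in Mature Meg) was just inside and Srpr (18.8 and 4.00) just outside for genes higher in MKP.

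More platelet and megakaryocyte genes were higher in MKP than in Mature Meg, but not by a larger share than among all tested genes. Over the 7 lists of these genes, 155 of 163 members stood in the table and 66 reached FPKM 10 in either library. Of these 66, 35 (53.0%) were at least 4-fold higher in MKP, beside 65.3% of all tested genes, and 11 (16.7%) were higher in Mature Meg, beside 17.7%. On the ribosomal scale 27 of 69 were higher in MKP and 20 in Mature Meg, beside 1155 and 641 of 2245 tested genes. The median log2 difference of the 66 members as deposited was -2.26, beside -3.58 over all tested genes. The shares in each direction were thus near or below those of the whole table. By rank among the 18 libraries, of 129 members at FPKM 1 anywhere, 24 (18.6%) were highest in MKP and 11 (8.53%) highest in Mature Meg, beside 5.51% and 3.30% of 9685 genes. In bulk libraries fewer cells of a type and less RNA per cell cannot be told apart.

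**Figure D3:**
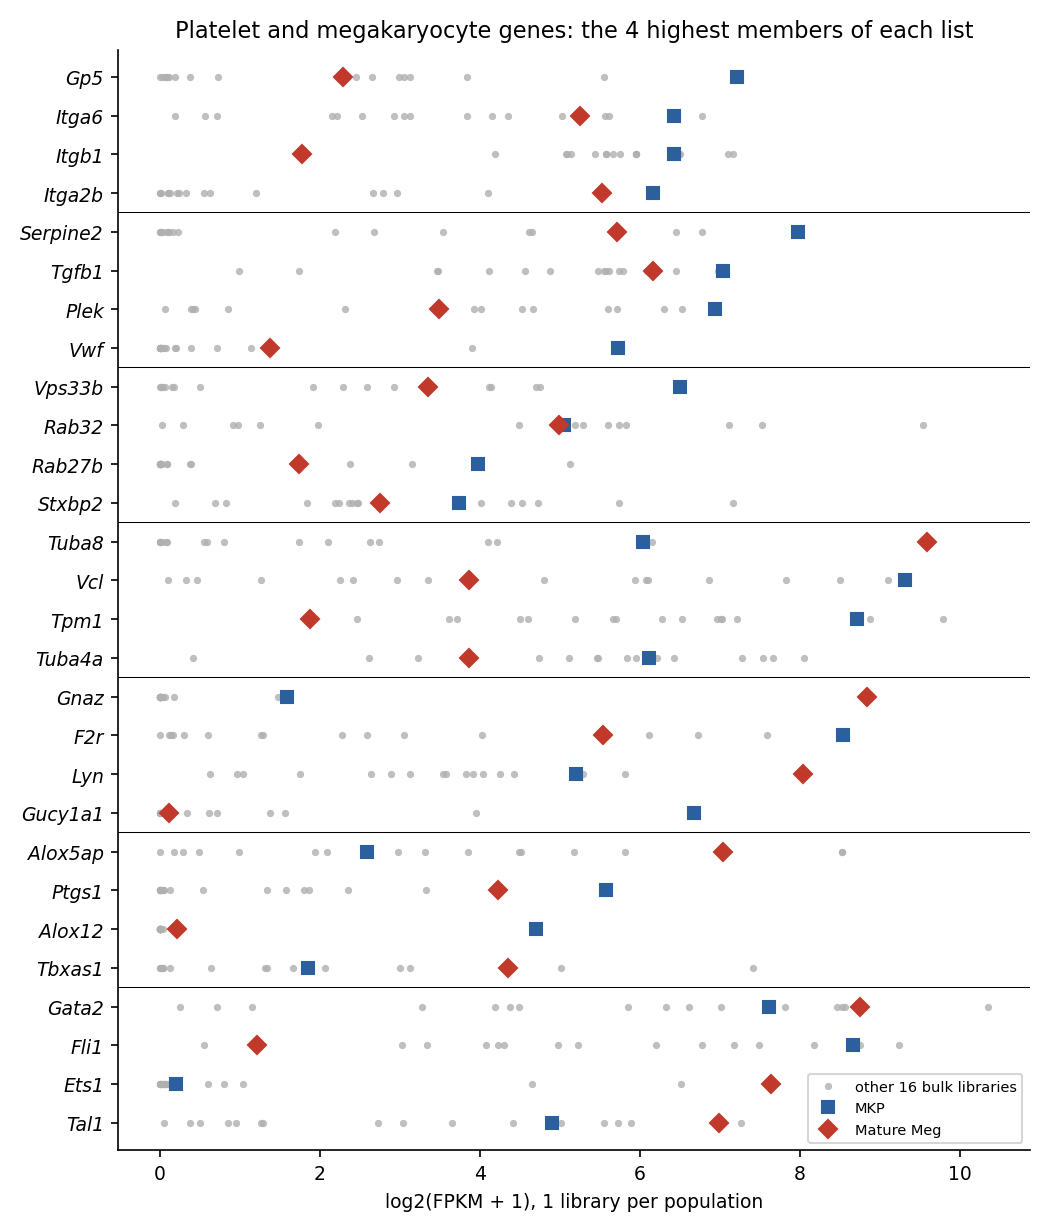
Levels of the 4 highest members of each platelet and megakaryocyte list, as log2(FPKM + 1) on the x axis, with MKP (blue squares), Mature Meg (red diamonds) and the other 16 bulk libraries (grey points), 1 library per population; lines separate the lists in the order of the text. MKP exceeds every other library for Gp5, Itga2b, Serpine2, Tgfb1, Plek, Vwf, Vps33b, Vcl, F2r, Gucy1a1 (Gucy1a3 in the text), Ptgs1 and Alox12, and Mature Meg does for Tuba8, Gnaz, Lyn and Ets1.

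Surface receptors that let platelets stick to the vessel wall and to each other came first. Of 22 measured members, 6 reached FPKM 10, of which 3 (50.0%) were higher in MKP and none in Mature Meg (median log2 difference -2.91). The shares of all tested genes were 65.3% and 17.7%. Gp5 differed by -4.92 on the log2 scale, and the highest of the other 16 libraries, preMegE, was at 45.6 FPKM. Esam, an adhesion molecule of platelets and endothelium, was at 33.1 FPKM in MKP and 0.177 in Mature Meg, a log2 difference of -4.86. Itgb1, the common beta chain of collagen and laminin receptors, was at 85.0 FPKM in MKP and 2.41 in Mature Meg, below the 17.2 FPKM that was lowest among the other 16. Itga2b, Cd9, a tetraspanin, and Itga6 (85.1 FPKM in MKP and 37.2 in Mature Meg), which pairs with Itgb1 to bind laminin, stayed under 4-fold. Cd9 was at 7.17 FPKM in MKP and 19.5 in Mature Meg, the 2 highest of the 18 libraries. The remaining receptors were low in both. Gp1ba and Gp1bb, partners of Gp5, were at 1.01 and 1.32 FPKM in MKP, which was still highest of 18. Treml1 was at 4.99 FPKM in MKP and 0.868 in Mature Meg. The summed level of the list was 440 FPKM in MKP, the highest of 18, and 111 in Mature Meg, the 9th.

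The alpha-granule list also counts Plek, a kinase substrate. Of its 6 tested members, 5 (83.3%) were higher in MKP, beside 65.3% of all tested genes, and none in Mature Meg (median -2.92). Vwf, which tethers platelets to exposed collagen, was at 52.0 FPKM in MKP and 1.60 in Mature Meg, a log2 difference of -4.35, and at most 13.9 elsewhere, in HSC. The log2 difference of Pf4 was -4.61, and its highest value elsewhere was 7.30 FPKM in MPP1. Both genes were highest of 18 in MKP and stood 3rd (Vwf) and 4th (Pf4) in Mature Meg, because most other libraries were at or near 0. Serpine2, an inhibitor of thrombin, was at 251 FPKM in MKP and 51.4 in Mature Meg. Plek (pleckstrin), the main protein kinase C substrate of platelets, was at 122 FPKM in MKP and 10.2 in Mature Meg. Srgn, the granule proteoglycan, was at 23.7 FPKM in MKP and 3.75 in Mature Meg, near the bottom of the 18 in both. Tgfb1, a growth factor stored in these granules, passed no threshold at 131 FPKM in MKP and 70.7 in Mature Meg. Clu (clusterin) was at 8.71 FPKM in MKP, 0.445 in Mature Meg and at most 0.0679 in the other 16, although it stayed under FPKM 10. Ppbp, a second granule chemokine, was listed at 0 in MKP and in each of the other 16 libraries.

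Genes that build and release granules were fewer. Of 20 measured, 5 reached FPKM 10, with 3 (60.0%) higher in MKP, beside 65.3% of all tested genes, and none in Mature Meg (median -2.24). Vps33b, which sorts cargo into alpha granules, was at 89.4 FPKM in MKP and 9.20 in Mature Meg, and 25.8 was the highest value elsewhere. Rab27b, a GTPase of granule docking, was at 14.8 FPKM in MKP and 2.33 in Mature Meg. Rab38, a GTPase of dense-granule formation, was at 10.7 FPKM in MKP and listed at 0 in Mature Meg. Its relative Rab32 was level at 32.2 and 30.8 FPKM.

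The cytoskeleton of platelets and proplatelets was split between the libraries. Of 24 measured members, 13 reached FPKM 10, with 5 (38.5%) higher in MKP and 3 (23.1%) in Mature Meg, beside 65.3% and 17.7% of all tested genes. The median was 0.09 as deposited and 2.02 on the ribosomal scale. Vcl (vinculin), which links integrins to actin, was at 636 FPKM in MKP, the highest of 18, and at 13.6 in Mature Meg. Tpm1, an actin-binding tropomyosin, was at 416 FPKM in MKP and 2.66 in Mature Meg, the lowest of 18. Fermt3 (kindlin-3), which activates platelet integrins, was at 32.2 FPKM in MKP and 0.889 in Mature Meg. These adhesion-linked genes were joined by Lims1 at 37.1 FPKM in MKP and 1.11 in Mature Meg, and by Tuba4a at 68.4 and 13.6. In the other direction, Tuba8, an alpha-tubulin abundant in megakaryocytes, was at 64.6 FPKM in MKP and 767 in Mature Meg, a log2 difference of 3.55, with 70.1 as the highest value elsewhere. Tpm4, a tropomyosin known for its part in platelet production, was at 9.59 FPKM in MKP and 56.5 in Mature Meg. Cnn2, a calponin, was at 8.07 FPKM in MKP and 38.4 in Mature Meg, again highest of 18. Tln1 (talin), the other main activator of integrins, was at 22.0 FPKM in MKP and 41.2 in Mature Meg, the second highest and highest of 18. Myh9, the non-muscle myosin of platelets, was at 7.48 and 28.7 FPKM, short of 4-fold. Tubb1 was highest of 18 in Mature Meg at 2.00 FPKM, against 0.0520 in MKP. Tubulin and tropomyosin genes resemble one another, and how reads were shared among such copies is not given in the sources used here.

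Agonist receptors and their signalling chains were the largest group. Of 36 measured, 17 reached FPKM 10, with 11 (64.7%) higher in MKP and 3 (17.6%) in Mature Meg, shares near the 65.3% and 17.7% of all tested genes (median -3.34). F2r, the thrombin receptor PAR1, was at 369 FPKM in MKP, 45.6 in Mature Meg and at most 191 elsewhere, in preMegE. Gucy1a3, the nitric oxide sensor that restrains platelets, was at 101 FPKM in MKP and 0.0780 in Mature Meg. Plcg2, the phospholipase downstream of collagen receptors, was at 78.3 FPKM in MKP and 0.0764 in Mature Meg. Other genes of collagen-receptor signalling called higher in MKP were Syk at 51.8 FPKM in MKP and 3.94 in Mature Meg, Lat at 16.9 and 0.774, and Fyn at 38.7 and 1.00, whereas Lyn was called in the other direction. Also higher in MKP were Rap1b (48.4 and 9.11 FPKM), the GTPase that switches integrins on, Stim1 (25.2 and 0.404), a calcium-store sensor, and Prkcq (26.4 and 0.114), a protein kinase C. Prkar2b was at 15.0 FPKM in MKP and 0.424 in Mature Meg, and Ptger3 at 10.5 in MKP and listed at 0 in Mature Meg.

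The 3 signalling genes higher in Mature Meg were all highest of 18 there. Gnaz, a G-protein alpha subunit abundant in platelets, was at 2.02 FPKM in MKP, 457 in Mature Meg and at most 1.78 in the other 16, a log2 difference of 7.25. P2rx1, the ATP-gated channel of platelets, was at 1.70 FPKM in MKP, 41.6 in Mature Meg and at most 2.09 elsewhere. Lyn, a Src-family kinase, was at 35.9 FPKM in MKP and 262 in Mature Meg, and at most 55.1 elsewhere. For Gnaz and P2rx1 the Mature Meg value was thus the only one of 18 above 3 FPKM. P2ry1, the ADP receptor, was at 21.1 FPKM in MKP and 12.8 in Mature Meg, 1st and 3rd of 18, and Rasgrp2, which activates Rap1b, was at 11.6 and 19.4.

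Enzymes that make eicosanoids, the lipid mediators of platelet activation, also split. Alox12, the platelet lipoxygenase, was at 24.9 FPKM in MKP, 0.156 in Mature Meg and at most 0.0304 elsewhere, so that it was nearly confined to MKP among these 18 libraries. Ptgs1, the cyclooxygenase that aspirin blocks, was at 46.7 FPKM in MKP and 17.6 in Mature Meg, the 2 highest of 18, without reaching 4-fold. Tbxas1, thromboxane synthase, was at 2.60 FPKM in MKP and 19.4 in Mature Meg. Alox5ap, the activating protein of 5-lipoxygenase that myeloid cells use, was at 5.03 FPKM in MKP and 130 in Mature Meg. Of 9 members, 4 reached FPKM 10, 1 higher in MKP and 2 in Mature Meg. These are 25.0% and 50.0%, beside 65.3% and 17.7% of all tested genes.

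Transcription factors of the lineage differed in both directions. Of 24 measured, 15 reached FPKM 10, with 7 (46.7%) higher in MKP and 3 (20.0%) in Mature Meg (median -1.82). All tested genes had 65.3% and 17.7%. Fli1, an ETS factor, was at 405 FPKM in MKP and 1.31 in Mature Meg, a log2 difference of -7.45. Ets1, another ETS factor, was at 0.145 FPKM in MKP and 199 in Mature Meg, a log2 difference of 7.45 and the highest of 18. Members of this family therefore stood at opposite ends, and Etv6 was with Fli1 (95.1 FPKM in MKP and 0.219 in Mature Meg). The small Maf proteins, DNA-binding partners of Nfe2, were divided likewise: Mafk was at 20.0 FPKM in MKP and 0.0151 in Mature Meg, and Mafg was listed at 0 in MKP and at 121 in Mature Meg. Nfe2 itself was level at 25.9 and 23.0 FPKM. Meis1 (81.2 FPKM) and Runx1 (15.9) in MKP were listed at 0 in Mature Meg. Lmo2, a bridging protein of the Tal1 complex, was at 32.6 FPKM in MKP and 0.814 in Mature Meg, while Tal1 was at 28.9 and 125. Gata1 was at 34.2 FPKM in MKP and 9.58 in Mature Meg, and Gata2 at 194 and 429, both under 4-fold.

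**Figure D4:**
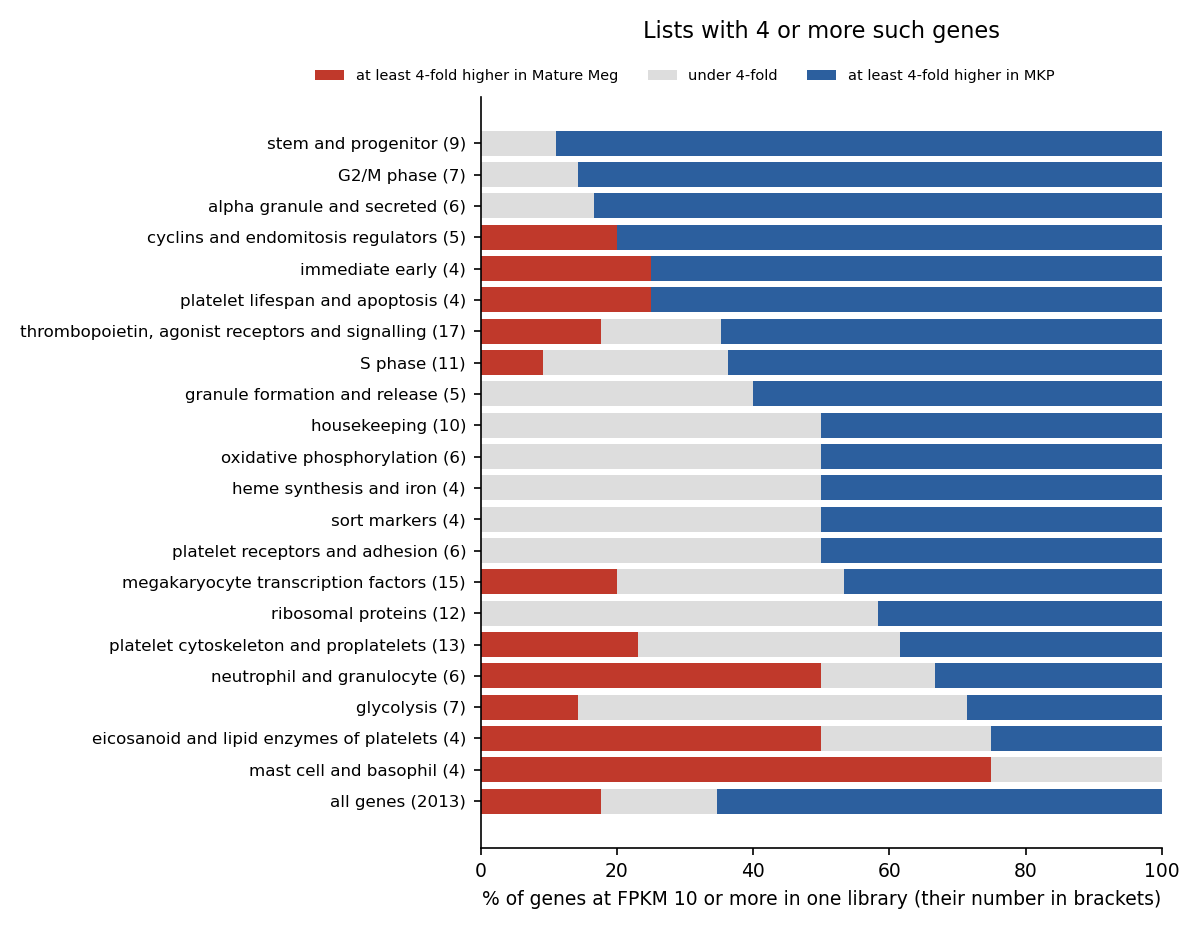
Share of the genes at FPKM 10 or more in either library that were at least 4-fold higher in Mature Meg (red), under 4-fold (grey) or at least 4-fold higher in MKP (blue), for each list with 4 or more such genes (number in brackets) and for all 2013 genes in the lowest bar. The alpha-granule list has 5 of 6 genes on the MKP side and the mast cell and basophil list 3 of 4 on the Mature Meg side.

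Of 9 tested stem and progenitor genes, 8 (88.9%) were higher in MKP, beside 65.3% of all tested genes, and none in Mature Meg (median -4.31). Myc was at 391 FPKM in MKP and 0.345 in Mature Meg, and Myb, a factor of proliferating progenitors, at 535 and 4.59, both lowest of 18 in Mature Meg. Cd34 was at 22.1 FPKM in MKP and Muc13, a mucin, at 60.9, the highest of 18, and both were listed at 0 in Mature Meg. Adgrg1 was the exception at 165 and 301 FPKM. Of 7 tested G2/M genes, 6 (85.7%) were higher in MKP. Plk1, a kinase of mitosis, stood at 708 FPKM in MKP and 0.842 in Mature Meg, and Ube2c, a mitotic ubiquitin-conjugating enzyme, at 64.0 and 0.0601. Tpx2, a spindle factor, did not follow, at 71.6 and 53.7 FPKM. Of 11 tested S-phase genes 7 (63.6%) were higher in MKP, near the share of all tested genes, Mcm7 among them (254 and 6.99 FPKM), while Mcm3, of the same helicase, was at 210 and 188. Pola1, a DNA polymerase subunit, was the 1 S-phase gene higher in Mature Meg, at 1.78 and 40.3 FPKM. Among cyclins and regulators of endomitosis, Ccnd3, a D-type cyclin of megakaryocytes, was at 38.3 FPKM in MKP and 211 in Mature Meg. Cdk4, its kinase partner, was at 67.6 and 1.83, and Arhgef2, a RhoA activator that is lowered for endomitosis, at 109 and 0.202. The survival factors Mcl1 (770 FPKM in MKP and 1.78 in Mature Meg) and Bcl2l1 (87.1 and 0.0553), the latter setting platelet lifespan, were both on the MKP side, and Casp9, an initiator caspase, was at 0.0242 and 11.0.

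Markers of other blood and marrow cells were counted next, and their lists did not share a direction. In the 9 lists of such markers, 15 of 156 measured members reached FPKM 10 in Mature Meg, against 8 in MKP and 4 to 21 in the other 16 libraries, where 3.63% of all genes in Mature Meg and 8.83% in MKP did. Of 21 members tested, 13 (61.9%) were higher in Mature Meg and 5 (23.8%) in MKP, beside 17.7% and 65.3% of all tested genes. Since 15 of these 21 reached FPKM 10 in Mature Meg itself, the minimum favoured that direction, and the shares are only descriptive. By list they ran from 3 of 3 monocyte and macrophage genes higher in Mature Meg to 2 of 2 red-cell genes higher in MKP. Of 103 members at FPKM 1 anywhere, 16 (15.5%) were highest of 18 in Mature Meg, beside 3.30% of all genes. Of the 156 members, 34 reached FPKM 1 in Mature Meg and 73 were listed at 0 there, against 98 listed at 0 in MKP.

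Basophil and mast cell genes formed the fullest set. Their summed level was 201 FPKM in MKP and 741 in Mature Meg, second of 18, with 2.61 to 1312 in the other 16, although Gata2, which progenitors share, made up 429 of the 741. Prss34 was at 234 FPKM in Mature Meg, listed at 0 in MKP and at most 11.8 elsewhere, in GMP-7. Mcpt8, a protease of basophils, was at 14.1 FPKM in Mature Meg, listed at 0 in MKP and at most 4.82 elsewhere. Hdc, which makes histamine, was at 3.18 FPKM in MKP, 47.1 in Mature Meg and at most 34.3 elsewhere. Cpa3, mast cell carboxypeptidase, was at 6.27 FPKM in Mature Meg and Fcer1a, the IgE receptor alpha chain, at 1.63, both again highest of 18. Ms4a2, the IgE receptor beta chain, was at 0.428 FPKM, and 5 of the 16 members were listed at 0 in Mature Meg.

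Neutrophil genes were split between the libraries. On the Mature Meg side, Lyz2 (lysozyme) was at 0.944 FPKM in MKP and 360 in Mature Meg, Ngp at 0.420 and 44.0, and Chi3l3 was listed at 0 in MKP and at 43.9 in Mature Meg, each highest of 18. On the MKP side stood the proteases and peroxidase of primary granules, which form early: Elane was at 596 FPKM in MKP and 0.245 in Mature Meg, and Mpo at 77.5 and 6.11. The Elane level of MKP was the 3rd highest of the 18 libraries, and GMP-11 was highest at 2932 FPKM. S100a8, S100a9, Ltf and Camp, other late neutrophil genes, were highest of 18 in Mature Meg at only 1.13, 0.783, 0.703 and 0.531 FPKM. Further members of the list were not: Csf3r, Mmp8 and Mmp9 were listed at 0 in Mature Meg. Lcn2 was at 2.88 FPKM there and 4.10 in MPP3, and Cxcr2 at 3.53 there and 4.24 in GMP-11. The median of the list (1.52) changed sign to -1.95 without genes listed at 0 in either library.

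The remaining cell types had 1 to 3 markers each at FPKM 10 or more, apart from eosinophils and red cells with none. Among monocyte and macrophage genes, Vcam1, an adhesion molecule, was at 150 FPKM in Mature Meg and C1qa, a complement subunit, at 14.6, both listed at 0 in MKP, and Ccr2, a chemokine receptor, was at 1.63 and 21.4. All 3 were highest of 18, whereas Csf1r, the receptor that defines monocytes, was at 0.0107 FPKM. Cxcl12, the chemokine of marrow stroma, was at 196 FPKM in Mature Meg, listed at 0 in MKP and at most 1.21 elsewhere. Of 20 genes of endothelium and stroma, 16 were listed at 0 in Mature Meg, Cdh5 and Kdr included, and 14 in MKP. Of all 18855 genes, 13359 were listed at 0 in Mature Meg and 10035 in MKP. Rag1, the recombinase of lymphocytes, was at 0.0455 FPKM in MKP and 93.0 in Mature Meg. On the same B and plasma cell list, Xbp1 was at 25.9 and 44.4 FPKM and Ebf1 at 1.53 and 5.66. Ms4a1, Vpreb3 and Fcrla were at 1.89, 1.49 and 1.38 FPKM in Mature Meg and listed at 0 in MKP. Of its 17 measured members, 8 were listed at 0 in Mature Meg. Pax5, which commits cells to the B lineage, was listed at 0 in all 18 libraries. Cd4 was at 0.0103 and 29.4 FPKM, with Cd3e at 0 in both libraries. Cd74, the invariant chain of MHC class II, was at 0.0155 FPKM in MKP and 37.2 in Mature Meg. The class II genes H2-Aa (0 and 4.35 FPKM) and H2-Ab1 (0.361 and 1.74) were in the same direction. Of the 16 members of the dendritic cell and MHC class II list, 10 were listed at 0 in Mature Meg. Of 19 red-cell genes, none reached FPKM 1 in Mature Meg, and their sum of 2.34 FPKM was the lowest of 18. The part of such cells in the Mature Meg values was not tested.

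**Figure D5:**
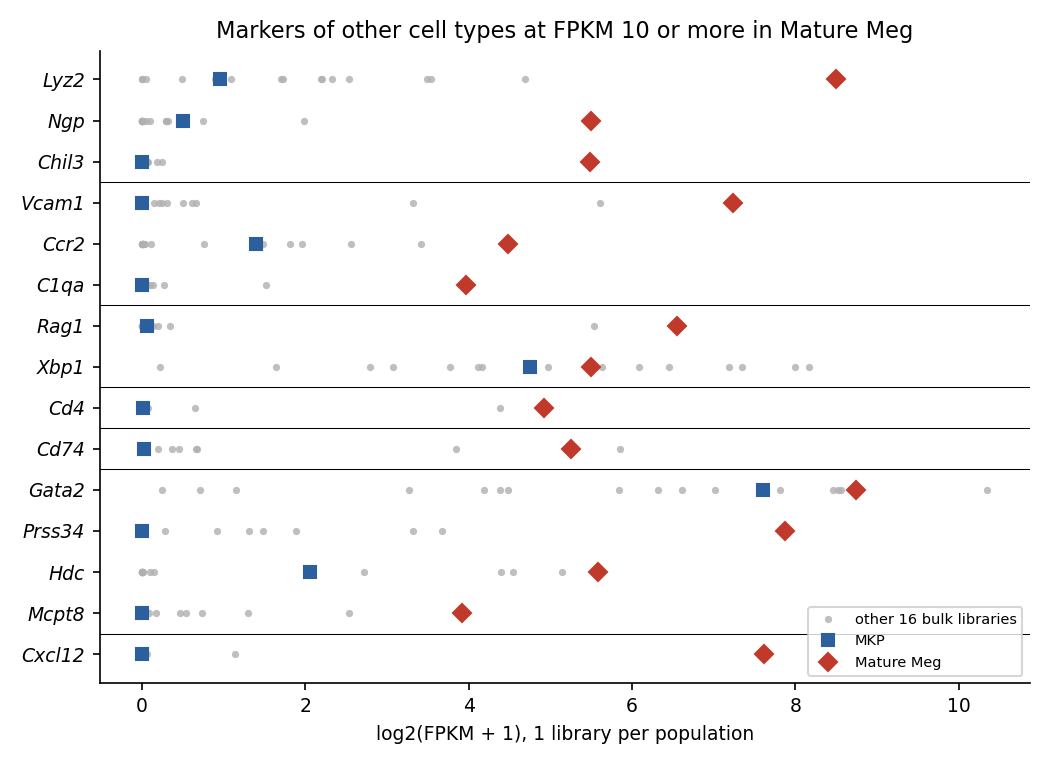
Markers of other cell types at FPKM 10 or more in Mature Meg, as log2(FPKM + 1) on the x axis, with MKP (blue squares), Mature Meg (red diamonds) and the other 16 bulk libraries (grey points), 1 library per population; lines separate the lists. Mature Meg is the highest of 18 for 12 of these 15 genes, all but Xbp1, Cd74 and Gata2.

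The largest differences belonged mostly to genes outside these lists. Clec4a1, a C-type lectin of myeloid cells with close relatives in the genome, was the highest gene of the Mature Meg library at 8278 FPKM, listed at 0 in MKP and at most 125 elsewhere. Gab2, a docking protein of cytokine and IgE receptors, was at 3129 FPKM, and Mertk, a receptor for dying cells, at 941, both also listed at 0 in MKP. Ctr9, a subunit of the Paf1 complex, was at 0.268 FPKM in MKP and 792 in Mature Meg, and Scd1, a fatty acid desaturase, at 0.126 and 426. These single-gene extremes are part of a broader feature, since 62 of the 356 genes higher in Mature Meg differed at least 64-fold and 172 were under FPKM 1 in MKP. The other direction held such differences too, with 211 of the 1315 genes higher in MKP at 64-fold or more. Only 11 of the 356 were under FPKM 1 in all of the other 16 libraries, and 284 (79.8%) reached FPKM 10 in at least 1 of them.

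In the opposite direction, Uri1, a prefoldin-like chaperone, was at 1941 FPKM in MKP and 0.0976 in Mature Meg. Tgfbr3, a co-receptor for TGF-beta, was at 1137 and 0.108 FPKM, and Nucb1, a calcium-binding Golgi protein, at 885 and 0.380. Cops7a, of the COP9 signalosome, was at 1757 FPKM in MKP, Mrps7, of the mitochondrial ribosome, at 699 and Msn (moesin), which ties actin to the membrane, at 628, all listed at 0 in Mature Meg. Of the 1315 genes higher in MKP, 279 were listed at 0 in Mature Meg and 990 were under FPKM 1 there, while 1207 (91.8%) reached FPKM 10 in at least 1 of the other 16 libraries.

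The most abundant RNAs were partly shared. Eif3k, a translation initiation subunit, led MKP at 14587 FPKM and was at 2625 in Mature Meg. Lars2, the mitochondrial leucyl-tRNA synthetase, was at 5199 and 4748 FPKM. Among the 10 highest genes of either library, these were the 2 in common. Grn, the progranulin gene, was at 1417 FPKM in MKP and 2.87 in Mature Meg, and S1pr1, the sphingosine-1-phosphate receptor that guides proplatelets into vessels, at 77.4 and 1835.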

How the data were processed

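Bulk RNA (PMA-RNA-seq, per the labels) was amplified from 1000 sorted cells per library and sequenced after TruSeq preparation. The authors deposited FPKM values in 1 table of 18855 genes and 18 libraries. The submitters' processing notes list TopHat 1.3.3, Cufflinks 1.2.1 and the mouse build mm9. Read depth, strand and the treatment of multi-mapping reads are not given in the sources used here, so no counting interval was computed. Names were matched to RefSeq by accession (18326), symbol (256) or synonym (164), and 109 were not matched; Pf4 stood under an older name.

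Differences were computed as log2(FPKM + 1), Mature Meg minus MKP, with Python 3.11.15 and pandas 2.3.3. Genes at FPKM 10 or more in either library were compared, and 4-fold in FPKM + 1 was the threshold. This scale understates differences of low genes. The calling rule was run on simulated data, made by multiplying high MKP values by set factors without noise or missed genes. That run checks the arithmetic of the threshold only. The named genes were up to 12 per direction with the largest difference, the 10 highest per library, called members and up to 4 highest members of each of 29 lists, other-cell markers at FPKM 10 or more in Mature Meg, sort markers and genes at the threshold, from which the text draws; others named were chosen after their values were seen. Members and lists were chosen with earlier results of these data known. Pseudocount, minimum, fold, scaling and zeros were varied. Some genes that the rule names are not reported here.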

Additional observations from a re-analysis of the deposited data

How the results depend on the processing

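No paired analysis was possible because each population has 1 library. Under every alternative run, more genes passed the fold in favour of MKP than of Mature Meg. The share of called genes that were higher in Mature Meg ranged from 17.6% without an FPKM minimum to 35.7% with the ribosomal scale. Platelet genes higher in MKP numbered 25 to 51. Without an FPKM minimum 2177 genes were higher in MKP. At 8-fold, 6 platelet genes were higher in Mature Meg, and with the ribosomal scale 20, beside 641 genes in all and 23 markers of other cells at FPKM 10 or more. Without genes listed at 0 in either library, 9 such markers remained. Of 2 alternatives chosen after seeing the data, the one that kept genes at FPKM 1 in at least 9 of the 18 libraries left 3 such markers, and the one without genes at FPKM 10 in 1 library alone left 14. The median of the neutrophil list turned to -1.58 at a minimum of 5, to -1.95 without zeros and without genes seen in 1 library, and to -2.71 with the requirement of 9 libraries, which also turned the dendritic list to -4.31. The eicosanoid list turned to -1.36 at a minimum of 20. These lists have 2 to 6 tested genes. Of the differences of single named genes, 868 values stayed on their side of the threshold and 40 did not. With 1 library per population and unknown depth, a level near 0 and a level missed cannot be told apart.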

Other observations

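Genes of central metabolism and translation showed wide gaps between members of the same machinery. Hk1, the hexokinase that starts glycolysis, was at 40.9 FPKM in MKP and 1553 in Mature Meg, the highest of 18, and raised the summed glycolysis level to 1617 FPKM, the highest of 18, against 370 in MKP. Other glycolytic enzymes did not follow: Tpi1 was at 112 FPKM in MKP and 4.47 in Mature Meg, and Ldhb at 120 in MKP, the highest of 18, and listed at 0 in Mature Meg. Cox4i1, a subunit of cytochrome oxidase, was at 706 and 1.09 FPKM, while Atp5a1, of ATP synthase, was at 242 and 548. Of 12 tested ribosomal protein genes 5 (41.7%) were higher in MKP, below the 65.3% of all tested genes. None was higher in Mature Meg, beside 17.7% of all tested genes. The median of these ribosomal genes was -1.43, a size that the ribosomal rescaling of 1.57 removes by construction. Their summed level was 574 FPKM in MKP and 804 in Mature Meg over 29 measured genes, with Rplp1 at 162 and 621. Rplp0 was at 46.6 FPKM in MKP and 2.79 in Mature Meg, and Rpl4 at 99.5 and 96.9. Actb was highest of 18 in Mature Meg at 314 FPKM, against 102 in MKP, and Hsp90ab1, a chaperone, was lowest of 18 there at 26.6, against 1319.

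Interferon and immediate early genes were on the MKP side except for 1 gene. Oasl2, an antiviral enzyme relative, was at 108 FPKM in MKP and listed at 0 in Mature Meg, and Ifitm3, which blocks virus entry, was at 51.8 and 0.216. Klf6 and Zfp36, early-response genes, were at 13.9 and 19.6 FPKM in MKP and at 0.0195 and 0.468 in Mature Meg. Jund, an AP-1 subunit, was the exception at 10.3 FPKM in MKP and 157 in Mature Meg, the highest of 18.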
